A study of Mus musculus with 18 samples.

Results

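The dual-specificity MAPK phosphatases examined here are 10 genes, Dusp1, Dusp2, Dusp4, Dusp5, Dusp6, Dusp7, Dusp8, Dusp10, Dusp14 and Dusp16, taken by symbol from the 36528 genes of the files. All 10 are in the files and all 10 were among the 15521 genes tested, although Dusp2 had only 2 to 26 reads per sample. RNASeq was performed on primary RPTEC (renal proximal tubulo-interstitial epithelial cells) of C57BL/6 mice, bought from a supplier and grown in culture. Cells received vehicle (DMSO), recombinant mouse TWEAK at 100 ng/mL, or the same TWEAK with 3 μM of NIK SMI1, which inhibits the kinase NIK. They were collected at 6 h or 24 h, which gave 6 groups of 3 samples. No group received NIK SMI1 alone, so an effect of the inhibitor was measured only under TWEAK. The labels and methods do not say that the 3 samples of a group came from separate animals or preparations, so the SDs and p-values cover the spread between cultured samples.

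MAP kinases (ERK, JNK and p38) are switched on when the kinases upstream of them phosphorylate a threonine and a tyrosine in their activation loop, and dual-specificity phosphatases remove both phosphates. Many of these phosphatase genes are themselves transcribed in response to MAPK activity and so close a negative feedback loop. Dusp1, Dusp2, Dusp4 and Dusp5 encode inducible phosphatases of the nucleus, Dusp6 and Dusp7 cytoplasmic phosphatases that prefer ERK, and Dusp8, Dusp10 and Dusp16 phosphatases that prefer JNK and p38. Dusp14 encodes a small atypical phosphatase that lacks the MAPK-binding domain of the others. TWEAK is a TNF family ligand that signals through the receptor Fn14, and NIK (Map3k14) is the kinase that starts non-canonical NF-κB signaling.

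Promoters were read for the members called in the most comparisons of TWEAK or NIK SMI1, because elements that respond to kinase signals lie close to the start of such genes. The RefSeq table (GRCm38.p6) held 9 of the 10 members, and Dusp4 is the other one. The 250 bases before the annotated start of Dusp1 (chr17:26508473-26508722, minus strand), Dusp5 (chr19:53528895-53529144, plus strand) and Dusp6 (chr10:99262981-99263230, plus strand) read as follows, 5′ to 3′, with motif matches in capitals.
Dusp1: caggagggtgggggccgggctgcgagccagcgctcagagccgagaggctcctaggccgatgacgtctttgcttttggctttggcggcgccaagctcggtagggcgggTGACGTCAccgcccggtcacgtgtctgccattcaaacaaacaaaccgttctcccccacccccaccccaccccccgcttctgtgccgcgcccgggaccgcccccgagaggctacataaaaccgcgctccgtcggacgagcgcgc
Dusp5: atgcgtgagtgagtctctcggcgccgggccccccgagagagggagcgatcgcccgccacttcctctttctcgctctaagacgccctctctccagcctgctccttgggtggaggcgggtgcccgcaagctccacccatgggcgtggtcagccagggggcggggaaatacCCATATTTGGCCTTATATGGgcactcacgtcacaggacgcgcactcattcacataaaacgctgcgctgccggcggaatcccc
Dusp6: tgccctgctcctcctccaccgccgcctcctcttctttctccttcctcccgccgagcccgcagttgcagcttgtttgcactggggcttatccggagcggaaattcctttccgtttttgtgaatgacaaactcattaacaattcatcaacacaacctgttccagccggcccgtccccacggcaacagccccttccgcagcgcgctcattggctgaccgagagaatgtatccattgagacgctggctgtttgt
The motifs searched, on both strands, were the cyclic AMP response element TGACGTCA, the AP-1 element TGANTCA, the NF-κB consensus and the CArG box, the element bound by serum response factor. The capitals in Dusp1 are a cyclic AMP response element 143 to 136 bases before the start. Those in Dusp5 are adjacent CArG boxes, at 82 to 73 and 72 to 63 bases before it. Dusp6 held none of the 4 motifs. Among the other 6 members in the table, Dusp8 held 2 cyclic AMP response elements (107 to 100 and 63 to 56 bases before the start), and no 2 of these matches overlapped. Of all 32851 promoters in the table, cut to the same length, 1.55% held a cyclic AMP response element, 1.47% a CArG box, 6.75% an AP-1 element and 7.25% the NF-κB consensus. A match describes letters only, and binding was not measured.

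Total counts per sample ranged from 18040966 to 51956444, so that 3 reads corresponded to 0.0577 to 0.166 CPM (counts scaled to the total count of the sample). Markers of tubular epithelium were present (8 of 8 tested), and their summed level was lower with TWEAK than with vehicle, at 9554 to 9916 against 10294 to 10765 CPM at 6 h and 8145 to 8257 against 9215 to 9374 CPM at 24 h. TWEAK + NIK SMI1 samples had 10111 to 10724 CPM at 6 h and 8983 to 8993 CPM at 24 h. This sum moved in the same direction as Dusp1, Dusp5 and Dusp6 below, and its part in those results was not tested. Of 7 markers of mature proximal tubule (3 tested), several were at or near 0. Slc34a1 and Slc22a6 had at most 1 read, Hnf4a at most 2 reads, Lrp2 2 to 15 reads and Aqp1 0 to 18 reads per sample. Cubn had 53 to 186 reads and Slc5a2 119 to 402 reads per sample. Markers of fibroblasts (3 of 6 tested) summed to 9.74 to 14.1 CPM, those of endothelium (1 of 4 tested) to 0.195 to 0.813 CPM and those of leukocytes (1 of 5 tested) to 11.4 to 14.5 CPM. Genes of the pancreatic islet (5 of 8 tested), which these cells should lack, summed to 4.18 to 29.0 CPM in 14 samples and to 0.0451 to 0.214 CPM in the other 4, namely TWEAK 24 h replicate 2 and the 3 TWEAK + NIK SMI1 samples at 24 h. All 3 vehicle samples at 24 h held islet reads (14.3 to 19.5 CPM). TWEAK against vehicle at 24 h was therefore also computed without TWEAK 24 h replicate 2, so that every sample held them (13.2 and 4.18 CPM in the TWEAK samples kept). TWEAK + NIK SMI1 against TWEAK at 24 h was also computed without TWEAK 24 h replicates 1 and 3, so that no sample held more than 0.214 CPM, which leaves 1 TWEAK sample, assumed to vary like the other groups. For TWEAK + NIK SMI1 against vehicle at 24 h, islet reads and treatment cannot be told apart.

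Levels were compared between genes per kilobase, as the deposited RPKM. Dusp6 was the most abundant member in every group and Dusp2 was barely detected. In vehicle at 6 h the order was Dusp6 (113 ± 0.72 RPKM, SD, n = 3), Dusp5 (68.2 ± 3.6), Dusp4 (46.4 ± 1.0), Dusp1 (44.8 ± 1.2), Dusp7 (30.3 ± 0.34), Dusp10 (29.3 ± 0.56), Dusp14 (17.2 ± 0.52), Dusp16 (10.7 ± 0.37), Dusp8 (7.13 ± 0.10) and Dusp2 (0.243 ± 0.042). The samples of neighbouring genes in this order did not overlap. After 24 h of TWEAK the order had changed in its upper part: Dusp6 stood at 66.6 ± 1.0 RPKM, Dusp4 at 60.7 ± 2.6, Dusp7 at 36.7 ± 0.20, Dusp5 at 34.6 ± 2.9, Dusp10 at 24.0 ± 0.21 and Dusp1 at 23.8 ± 0.51. Dusp14 (15.4 ± 0.53), Dusp16 (10.9 ± 0.41), Dusp8 (6.92 ± 0.22) and Dusp2 (0.234 ± 0.022) kept the lowest 4 places. Over the 6 groups, 49 of 54 neighbouring pairs had samples that did not overlap. The pairs that did overlap were Dusp4 and Dusp5 with TWEAK at 6 h, Dusp10 and Dusp7 with vehicle at 24 h, Dusp7 and Dusp5 and also Dusp10 and Dusp1 with TWEAK at 24 h, and Dusp7 and Dusp1 with TWEAK + NIK SMI1 at 24 h. Within groups the members were measured closely: apart from Dusp2, the SD of CPM was 0.332% to 8.08% of the mean (median 2.62%).

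**Figure D1:**
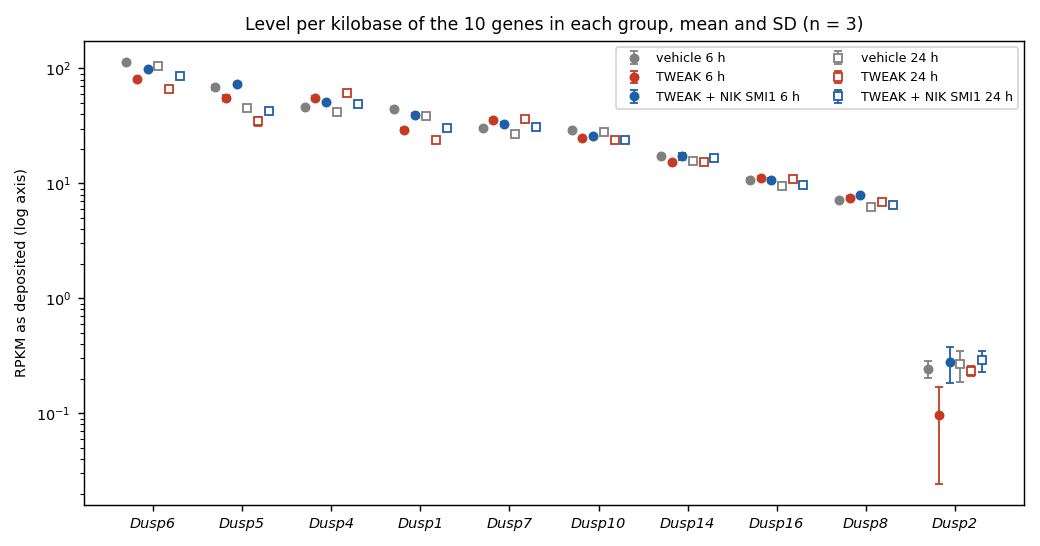
RPKM (log axis) of the 10 genes in each of the 6 groups, as mean and SD of 3 samples, ordered by the level in vehicle at 6 h. Dusp6 is highest in every group, from 66.6 RPKM with TWEAK at 24 h to 113 RPKM with vehicle at 6 h, and Dusp2 lies far below the other genes.

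TWEAK moved the family in both directions. At 6 h, 5 of the 10 members were lower with TWEAK than with vehicle (Dusp1, Dusp2, Dusp5, Dusp6 and Dusp10) and 2 were higher (Dusp4 and Dusp7), against 12.0% of all genes tested called lower and 11.7% called higher. At 24 h, 4 were lower (Dusp1, Dusp5, Dusp6 and Dusp10) and 4 higher (Dusp4, Dusp7, Dusp8 and Dusp16), against 20.7% and 18.3% of all genes. Calls are those of edgeR's quasi-likelihood test at an adjusted p below 0.05 over all genes tested. In bulk samples, less RNA per cell and fewer cells that express a gene cannot be told apart. TWEAK + NIK SMI1 was then compared with TWEAK alone. At 6 h, 3 members were higher with the inhibitor (Dusp1, Dusp5 and Dusp6; 5.34% of all genes) and 1 was lower (Dusp4; 5.70%). At 24 h the same 3 members were higher (10.2% of all genes) and Dusp4, Dusp7 and Dusp16 were lower (8.29%). The TWEAK and NIK SMI1 comparisons use the same TWEAK samples, so a chance deviation of those samples would move both in opposite directions. TWEAK + NIK SMI1 was therefore also set against vehicle, which shares vehicle samples with the TWEAK comparison: at 6 h, 3 members were lower (Dusp1, Dusp6 and Dusp10; 6.70% of all genes) and 3 higher (Dusp4, Dusp7 and Dusp8; 7.24%), of which Dusp8 was not called for TWEAK alone (adjusted p = 0.135). At 24 h, Dusp1, Dusp6 and Dusp10 were lower (9.83%) and Dusp4 and Dusp7 higher (8.07%). The median log2 fold change of all genes tested lay within 0.0083 of 0 in these comparisons. Without TWEAK 24 h replicate 2, so that every sample compared held islet reads, 8 members were called at 24 h for TWEAK. Over all 15438 genes tested in this setting, 2486 were called higher and 2737 lower. The TWEAK samples kept still held fewer islet reads (13.2 and 4.18 CPM) than vehicle (14.3 to 19.5 CPM). The NIK SMI1 changes at 24 h without TWEAK 24 h replicates 1 and 3, which leaves 1 TWEAK sample, are on the log2 scale. They were 0.32 ± 0.07 for Dusp1, 0.37 ± 0.07 for Dusp5 and 0.38 ± 0.04 for Dusp6. For Dusp4, Dusp7 and Dusp16 they were -0.26 ± 0.05, -0.24 ± 0.05 and -0.17 ± 0.07.

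**Figure D2:**
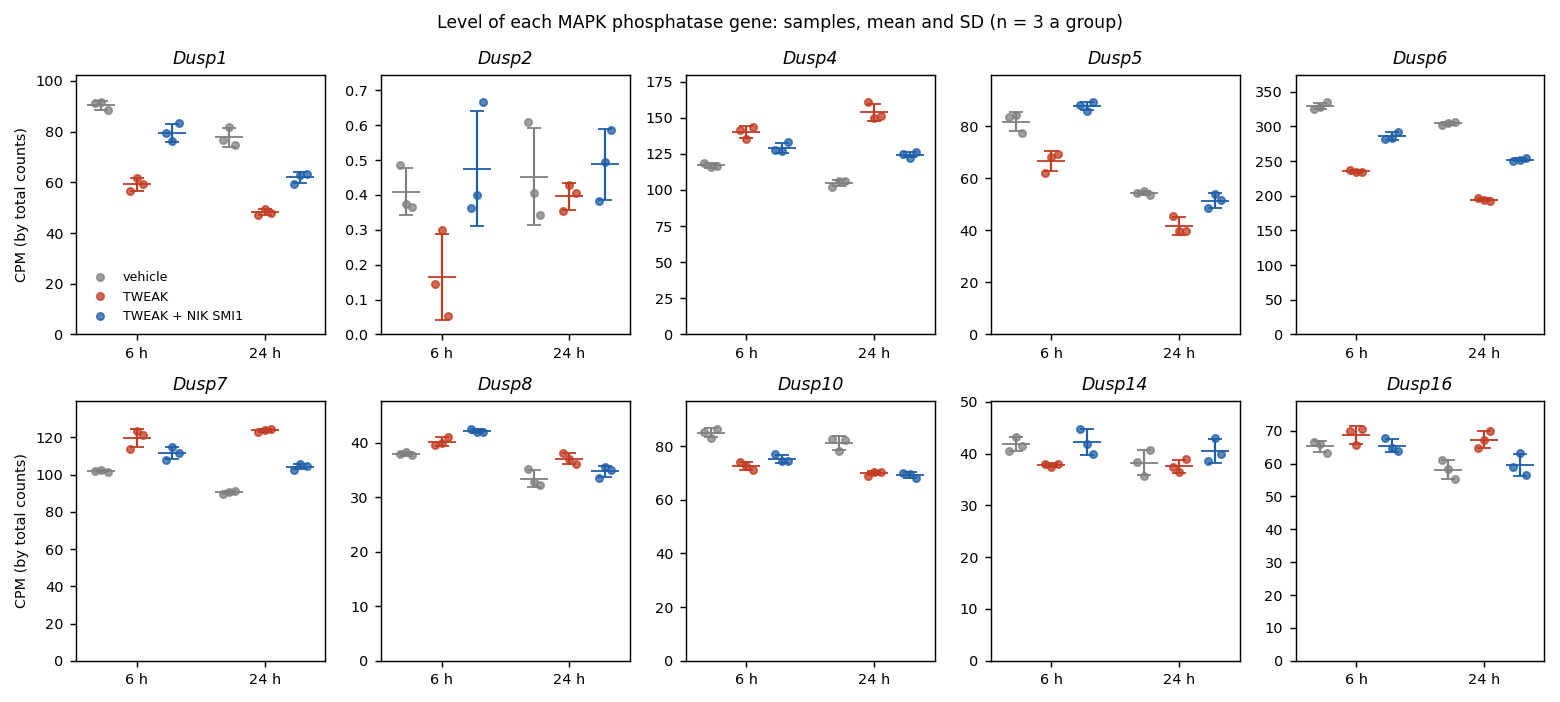
CPM by total counts of each gene (vertical axis from 0, scaled to each gene) in every sample at 6 h and 24 h, with points for samples, long dashes for means and bars for the SD (n = 3 a group). Dusp1, Dusp5 and Dusp6 are lower and Dusp4 and Dusp7 higher with TWEAK than with vehicle, and the mean of TWEAK + NIK SMI1 lies between both for Dusp1, Dusp4, Dusp6 and Dusp7 at each time point.

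Of the inducible nuclear phosphatases, Dusp1 (MKP-1), which acts on p38 and JNK and also on ERK, was lower with TWEAK. At 6 h the vehicle samples had 91.1, 91.5 and 88.3 CPM, the TWEAK samples 56.5, 61.8 and 59.2 CPM and the TWEAK + NIK SMI1 samples 79.3, 76.1 and 83.3 CPM. At 24 h the values were 76.8, 81.8 and 74.6 CPM with vehicle, 47.2, 49.6 and 48.0 CPM with TWEAK, and 59.5, 63.0 and 63.3 CPM with TWEAK + NIK SMI1. None of the 3 groups overlapped at either time, and the inhibitor samples stood between the other two groups. TWEAK lowered Dusp1 1.51-fold at 6 h (log2FC, the log2 fold change, -0.60 ± 0.04, SE, adjusted p = 1.6e-11) and 1.61-fold at 24 h (-0.68 ± 0.05, adjusted p = 1.51e-12). With NIK SMI1 it was 1.34-fold higher than with TWEAK alone at 6 h (0.42 ± 0.04, adjusted p = 1.17e-07) and 1.28-fold higher at 24 h (0.35 ± 0.05, adjusted p = 1.31e-06). It remained 1.13-fold below vehicle at 6 h (-0.18 ± 0.04, adjusted p = 0.0061) and 1.26-fold below at 24 h (-0.33 ± 0.04, adjusted p = 2.32e-06). The 6 h difference from vehicle had an adjusted p of 0.0501 when TWEAK + NIK SMI1 6 h replicate 2 was left out. In the annotation (GENCODE M21), 11 of 3311 exonic bases of Dusp1 are shared with Ergic1 on the opposite strand, and the library did not keep strand.

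Dusp5, a nuclear phosphatase selective for ERK, the gene with the paired CArG boxes printed above, was also lower with TWEAK. At 6 h it had 83.6, 84.3 and 77.6 CPM with vehicle, 62.2, 68.2 and 69.3 CPM with TWEAK and 88.1, 86.0 and 89.2 CPM with TWEAK + NIK SMI1. At 24 h it had 54.4, 55.1 and 53.5 CPM with vehicle, 45.6, 39.9 and 39.7 CPM with TWEAK and 48.6, 54.0 and 51.8 CPM with TWEAK + NIK SMI1. TWEAK samples were below both other groups at each time, whereas the inhibitor samples were above the vehicle samples at 6 h and overlapped them at 24 h. The decrease with TWEAK was 1.22-fold at 6 h (log2FC -0.28 ± 0.05, adjusted p = 0.000127) and 1.31-fold at 24 h (-0.39 ± 0.06, adjusted p = 3.1e-06). With NIK SMI1 the level was 1.31-fold (0.39 ± 0.05, adjusted p = 5.83e-06) and 1.24-fold (0.31 ± 0.06, adjusted p = 0.000182) higher than with TWEAK alone. Against vehicle, TWEAK + NIK SMI1 gave a log2 difference of 0.11 at 6 h (95% interval 0.00012 to 0.22, adjusted p = 0.186) and of -0.09 at 24 h (-0.20 to 0.03, adjusted p = 0.352), neither of them called. An antisense gene, AC137853.2, shares 547 of the 2473 exonic bases of Dusp5 in GENCODE M21. The counts use a Dusp5 model of 1155 exonic bases, and whether it holds the shared bases was not tested. Reads from any shared bases cannot be told apart by strand.

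Dusp4 (MKP-2), the third nuclear member with ample reads, went the other way. At 6 h it had 119, 116 and 116 CPM with vehicle, 142, 135 and 144 CPM with TWEAK and 127, 127 and 133 CPM with TWEAK + NIK SMI1. At 24 h it had 102, 106 and 106 CPM with vehicle, 161, 150 and 151 CPM with TWEAK and 125, 122 and 126 CPM with TWEAK + NIK SMI1. The 3 groups did not overlap at either time, with TWEAK highest and vehicle lowest. The rise with TWEAK was 1.21-fold at 6 h (log2FC 0.27 ± 0.04, adjusted p = 8.73e-07) and 1.47-fold at 24 h (0.55 ± 0.04, adjusted p = 1.36e-12), and it was larger at 24 h by 0.28 ± 0.05 on the log2 scale (interaction contrast, adjusted p = 0.000432). With NIK SMI1 the level was 1.09-fold lower than with TWEAK alone at 6 h (-0.13 ± 0.04, adjusted p = 0.0219) and 1.24-fold lower at 24 h (-0.31 ± 0.04, adjusted p = 2.42e-07). The 6 h call was lost when any of 4 samples was left out, with an adjusted p of up to 0.115. Without TWEAK 24 h replicate 2, so that all samples compared held islet reads, the 24 h change with TWEAK was 0.58 ± 0.04 on the log2 scale (adjusted p = 1.28e-11). Without TWEAK 24 h replicates 1 and 3, which leaves 1 TWEAK sample, the 24 h change with NIK SMI1 was -0.26 ± 0.05. Dusp4 remained above vehicle with the inhibitor, by 0.15 ± 0.04 at 6 h (adjusted p = 0.00666) and by 0.25 ± 0.04 at 24 h (adjusted p = 1.29e-05) on the log2 scale.

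Dusp2 (PAC-1), the remaining nuclear member, is best known from leukocytes and was near the limit of detection. Its reads per sample at 6 h were 15, 14 and 19 with vehicle, 5, 15 and 2 with TWEAK and 13, 10 and 12 with TWEAK + NIK SMI1. In CPM the vehicle samples had 0.366 to 0.486 and the TWEAK samples 0.0528 to 0.298. Its call as lower with TWEAK at 6 h (log2FC -1.16 ± 0.43, adjusted p = 0.0487) was lost in 19 of 25 alternatives, with an adjusted p of up to 0.224, and the value ran from -2.00 to -0.77 when 1 sample was left out. At 24 h the groups overlapped (log2FC -0.26 ± 0.39, adjusted p = 0.641), and it was called in no comparison with NIK SMI1, the widest of them being NIK SMI1 against TWEAK at 6 h (1.33 ± 0.45, adjusted p = 0.0577).

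Dusp6 (MKP-3), the ERK-selective cytoplasmic phosphatase and the most abundant member, was lower with TWEAK. At 6 h it had 326, 328 and 335 CPM with vehicle, 238, 234 and 234 CPM with TWEAK and 282, 283 and 292 CPM with TWEAK + NIK SMI1. At 24 h it had 302, 305 and 307 CPM with vehicle, 197, 194 and 193 CPM with TWEAK and 251, 252 and 254 CPM with TWEAK + NIK SMI1. Each group lay apart from the other two at both times, with the inhibitor samples in the middle. The decrease was 1.39-fold at 6 h (log2FC -0.47 ± 0.03, adjusted p = 1.07e-13) and 1.57-fold at 24 h (-0.65 ± 0.03, adjusted p = 1.15e-16). The TWEAK effect was the more negative at 24 h (difference -0.17 ± 0.04 on the log2 scale, interaction contrast, adjusted p = 0.00331). NIK SMI1 raised Dusp6 over TWEAK alone 1.21-fold at 6 h (0.28 ± 0.03, adjusted p = 3.67e-08) and 1.29-fold at 24 h (0.37 ± 0.03, adjusted p = 6.14e-11). It stayed below vehicle 1.15-fold at 6 h (-0.20 ± 0.03, adjusted p = 5.63e-06) and 1.21-fold at 24 h (-0.28 ± 0.03, adjusted p = 1.19e-08).

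Dusp7, the other cytoplasmic phosphatase of this group, was higher with TWEAK, opposite in direction to Dusp6. At 6 h it had 102, 102 and 102 CPM with vehicle, 114, 123 and 121 CPM with TWEAK and 108, 115 and 112 CPM with TWEAK + NIK SMI1. At 24 h it had 89.4, 90.5 and 91.4 CPM with vehicle, 123, 124 and 125 CPM with TWEAK and 103, 106 and 104 CPM with TWEAK + NIK SMI1. The TWEAK samples overlapped the inhibitor samples at 6 h and stood above them at 24 h. The rise with TWEAK was 1.18-fold at 6 h (log2FC 0.24 ± 0.04, adjusted p = 4.31e-06) and 1.37-fold at 24 h (0.45 ± 0.04, adjusted p = 5.7e-11), a difference of 0.21 ± 0.05 between the times (interaction contrast, adjusted p = 0.0063). Without TWEAK 24 h replicate 2, so that all samples held islet reads, that difference was 0.22 ± 0.05 (adjusted p = 0.0134). With NIK SMI1 the log2 difference from TWEAK alone was -0.11 at 6 h (95% interval -0.18 to -0.03, adjusted p = 0.0527, not called) and -0.25 ± 0.04 at 24 h (adjusted p = 4.64e-06). The 6 h difference from TWEAK passed the threshold in 5 of 25 alternatives, DESeq2 and filterByExpr among them. The level with the inhibitor was still above vehicle, by 0.13 ± 0.04 at 6 h (adjusted p = 0.011) and by 0.20 ± 0.04 at 24 h (adjusted p = 0.000144) on the log2 scale. The 6 h difference from vehicle was lost without TWEAK + NIK SMI1 6 h replicate 2 (adjusted p = 0.0803).

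**Figure D3:**
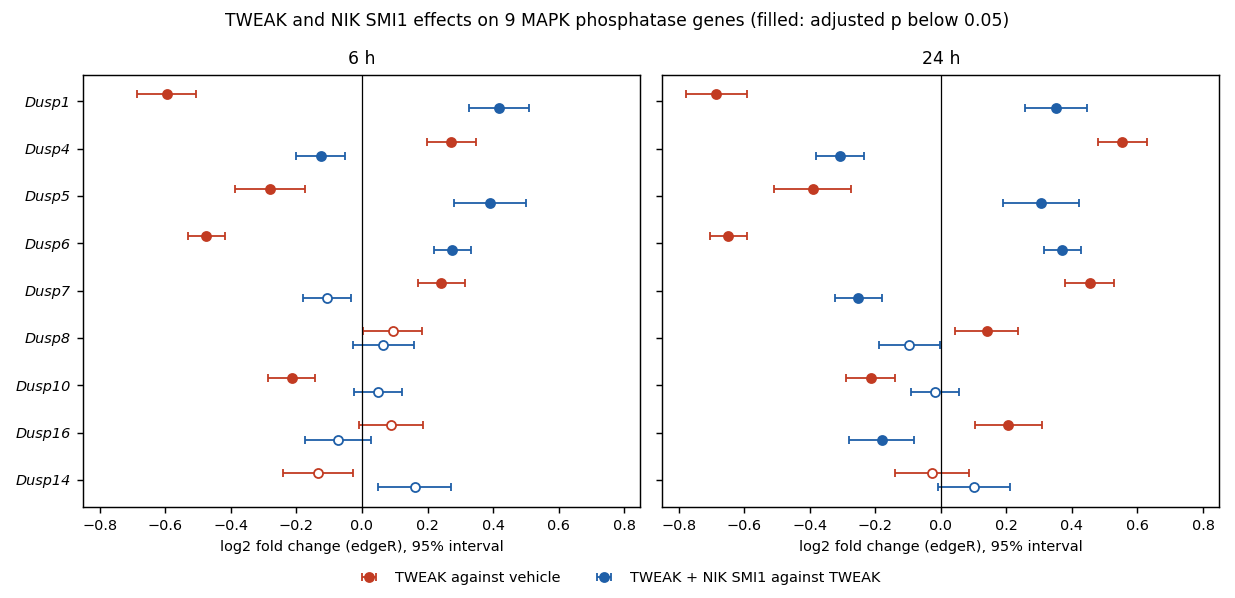
Log2 fold changes with 95% intervals from edgeR for 9 genes (Dusp2, with 2 to 26 reads per sample, is left out) at 6 h and 24 h, with filled points at an adjusted p below 0.05. TWEAK against vehicle and TWEAK + NIK SMI1 against TWEAK, which share the TWEAK samples, have opposite signs for Dusp1, Dusp4, Dusp5, Dusp6 and Dusp7, and for Dusp10 the NIK SMI1 points lie near 0.

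Among the phosphatases that prefer JNK and p38, Dusp10 (MKP-5) was lower with TWEAK and did not differ detectably between TWEAK with and without the inhibitor. At 6 h it had 84.9 ± 1.7 CPM with vehicle (SD, n = 3), 72.6 ± 1.4 with TWEAK and 75.3 ± 1.4 with TWEAK + NIK SMI1. At 24 h the means were 81.0 ± 2.6, 69.9 ± 0.82 and 69.3 ± 1.1 CPM. Vehicle samples stood above all other samples at each time, and the TWEAK samples lay below the inhibitor samples at 6 h and overlapped them at 24 h. The decrease with TWEAK was 1.16-fold at 6 h (log2FC -0.21 ± 0.03, adjusted p = 2.37e-05) and 1.16-fold at 24 h (-0.21 ± 0.04, adjusted p = 2.31e-05). With NIK SMI1 the log2 difference from TWEAK alone was 0.05 at 6 h (95% interval -0.03 to 0.12, adjusted p = 0.461) and -0.02 at 24 h (-0.09 to 0.06, adjusted p = 0.81). Against vehicle, TWEAK + NIK SMI1 was lower by the test at 6 h (-0.17 ± 0.04, adjusted p = 0.00179) and at 24 h (-0.23 ± 0.04, adjusted p = 1.92e-05).

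Dusp16 (MKP-7) and Dusp8, the other members of that class, were called for TWEAK or NIK SMI1 at 1 time point in a given comparison. Dusp16 had 65.2 ± 1.7, 68.7 ± 2.7 and 65.4 ± 2.0 CPM for the groups vehicle, TWEAK and TWEAK + NIK SMI1 at 6 h, and 58.2 ± 3.0, 67.2 ± 2.6 and 59.6 ± 3.4 CPM at 24 h. At 24 h the TWEAK samples (64.6 to 69.9 CPM) stood above the vehicle samples (55.2 to 61.1 CPM) and the inhibitor samples (56.5 to 63.2 CPM). The 24 h changes were 0.21 ± 0.05 on the log2 scale with TWEAK (adjusted p = 0.00158) and -0.18 ± 0.05 with NIK SMI1 against TWEAK (adjusted p = 0.00851), while the 6 h changes were not called (0.09, adjusted p = 0.206, and -0.07, adjusted p = 0.408). Its difference in the TWEAK effect between the times was not called (0.12 ± 0.07, adjusted p = 0.354). Among omissions of 1 sample, the NIK SMI1 call at 24 h was lost without TWEAK 24 h replicate 3 or TWEAK + NIK SMI1 24 h replicate 3. Without TWEAK 24 h replicates 1 and 3, which leaves 1 TWEAK sample, this change was -0.17 ± 0.07 on the log2 scale. Dusp8 had 37.7 to 38.4 CPM with vehicle, 39.5 to 41.1 with TWEAK and 41.9 to 42.6 with TWEAK + NIK SMI1 at 6 h, and its means at 24 h were 33.4 ± 1.5, 37.1 ± 1.1 and 34.7 ± 1.1 CPM in the same order of groups. It was called higher with TWEAK at 24 h (log2FC 0.14 ± 0.05, adjusted p = 0.0195) and with TWEAK + NIK SMI1 against vehicle at 6 h (0.16 ± 0.05, adjusted p = 0.019). The first of these calls was lost without vehicle 24 h replicate 2 or 3 or TWEAK 24 h replicate 1. The other was lost without vehicle 6 h replicate 3 or TWEAK + NIK SMI1 6 h replicate 1 or 2. Both were also lost with no filter on low counts. Gm32786, a non-coding gene on the opposite strand, shares 66 of 4870 annotated exonic bases with Dusp8.

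Dusp14 (MKP-6), the atypical member, had 41.8 ± 1.4, 37.8 ± 0.34 and 42.2 ± 2.5 CPM in the vehicle, TWEAK and TWEAK + NIK SMI1 groups of 6 h, and 38.2 ± 2.5, 37.6 ± 1.3 and 40.5 ± 2.3 CPM at 24 h. At 6 h its TWEAK samples were below those of both other groups, by a log2 difference from vehicle of -0.13 (95% interval -0.24 to -0.03, adjusted p = 0.0662) that was not called. Nor was the 6 h difference with NIK SMI1 against TWEAK (0.16, 0.05 to 0.27, adjusted p = 0.0558), although it passed the threshold in 6 of 25 alternatives. At 24 h the groups overlapped.

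Vehicle cultures were compared between the times, since the family also differed between 24 h and 6 h without TWEAK. The cause of this difference was not tested. In this comparison 9 of the 10 members were lower at 24 h, the exception being Dusp2, against 14.4% of all genes tested called lower. The change was greatest for Dusp5, whose mean went from 81.8 to 54.3 CPM (log2FC -0.65 ± 0.05, adjusted p = 2.98e-10). Dusp1 fell by 0.28 ± 0.04 on the log2 scale, Dusp8 by 0.24 ± 0.05, Dusp7 by 0.24 ± 0.04, Dusp4 by 0.23 ± 0.04 and Dusp16 by 0.22 ± 0.05 (adjusted p from 9.01e-06 for Dusp7 to 0.000949 for Dusp16). Smaller changes were those of Dusp14 (-0.19 ± 0.05, adjusted p = 0.00807, with overlapping samples), Dusp6 (-0.18 ± 0.03, adjusted p = 9.29e-06) and Dusp10 (-0.13 ± 0.04, adjusted p = 0.00546). This count depends on the scaling: the TMM factors were below 1 at 6 h and above 1 at 24 h in every sample. Without them the median of all genes moved to 0.07 on the log2 scale, 7 members were called lower, Dusp10 and Dusp14 were not, and over all genes 3710 were called higher and 1260 lower in place of 2407 and 2233.

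The TWEAK effect differed between 24 h and 6 h for 3 of the 10 members (Dusp4, Dusp6 and Dusp7, values above), against 8.91% of all genes tested called in either direction. The NIK SMI1 effect differed for 1 member, Dusp4 (-0.18 ± 0.05 on the log2 scale, adjusted p = 0.0372), against 4.73% of all genes. This last call was lost in 11 of 24 alternatives, with values from -0.14 to -0.21. Without TWEAK 24 h replicates 1 and 3, which leaves 1 TWEAK sample at 24 h, the difference was -0.14 ± 0.06. For Dusp1 and Dusp5 no difference between the times was called for TWEAK (-0.09, 95% interval -0.22 to 0.04, and -0.11, -0.27 to 0.05) or for NIK SMI1 (-0.07, -0.20 to 0.06, and -0.08, -0.24 to 0.07).

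Among the kinases that feed these phosphatases their substrates, several of the ERK cascade rose slightly with TWEAK at 24 h while its scaffold gene fell. Of 11 genes of this cascade, all tested, 5 were higher and 1 lower with TWEAK at 24 h, and edgeR called 0 at 6 h (1 at an unadjusted p below 0.05, 0 by DESeq2). Of all genes, 11.7% were called higher and 12.0% lower at 6 h, and 18.3% and 20.7% at 24 h. The median log2FC of the list was 0.02 at 6 h and 0.11 at 24 h (all genes -0.0034 and -0.0055). With NIK SMI1 against TWEAK, 2 were higher at 6 h and 0 were called by edgeR at 24 h (1 at an unadjusted p below 0.05, 0 by DESeq2). The shares over all genes were 5.34% higher and 5.70% lower at 6 h, and 10.2% and 8.29% at 24 h. Ksr1, the scaffold of the cascade, was the one that fell, from 42.1 ± 1.2 to 28.1 ± 1.5 CPM at 24 h (log2FC -0.57 ± 0.05, adjusted p = 7.02e-10). It was not called at 6 h (-0.13 ± 0.05, adjusted p = 0.0614), and with NIK SMI1 it was higher at 6 h (0.18 ± 0.05, adjusted p = 0.0256) and not called at 24 h (0.12 ± 0.05, adjusted p = 0.136). The MAPK kinases Map2k2 (0.18 ± 0.04, adjusted p = 0.000396) and Map2k1 (0.14 ± 0.04, adjusted p = 0.00552) rose with TWEAK at 24 h by these small amounts on the log2 scale.

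Of 24 genes of the JNK and p38 cascades, 4 were higher and 3 lower with TWEAK at 6 h, and 5 higher and 6 lower at 24 h, against 11.7% and 12.0% of all genes at 6 h and 18.3% and 20.7% at 24 h. With NIK SMI1, 1 was higher and 1 lower at 6 h, and 3 higher and 3 lower at 24 h, against 5.34% and 5.70% of all genes at 6 h and 10.2% and 8.29% at 24 h. These counts lie near the shares over all genes. The medians of the list lay between -0.014 and 0.010 on the log2 scale in the 4 comparisons. Map3k5 (ASK1), a stress-activated kinase upstream of JNK and p38, fell with TWEAK at 6 h (log2FC -0.45 ± 0.05, adjusted p = 2.02e-07) and at 24 h (-0.78 ± 0.06, adjusted p = 7.66e-12). With NIK SMI1 it was higher than with TWEAK alone (0.18 ± 0.06, adjusted p = 0.0451, and 0.39 ± 0.06, adjusted p = 6.4e-06). Map3k11 (MLK3), a kinase upstream of JNK, rose from 92.2 ± 0.92 to 119 ± 3.7 CPM at 6 h and from 88.0 ± 4.4 to 132 ± 4.8 CPM at 24 h, and at 24 h it was lower with NIK SMI1 (-0.32 ± 0.04, adjusted p = 2.21e-06). Map3k2, another upstream kinase, fell with TWEAK at both times (-0.48 ± 0.06, adjusted p = 1.42e-07, and -0.56 ± 0.06, adjusted p = 6.73e-09). Mapk11, the p38 isoform p38β, rose (0.41 ± 0.04, adjusted p = 1.97e-09, and 0.27 ± 0.04, adjusted p = 5.17e-06).

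Genes known to be transcribed on ERK activity, together with other feedback inhibitors of the pathway, numbered 16, all tested. With TWEAK, 3 were higher and 7 lower at 6 h, and 2 higher and 7 lower at 24 h (median log2FC -0.07 and -0.05). Over all genes, 11.7% were higher and 12.0% lower at 6 h, and 18.3% and 20.7% at 24 h. With NIK SMI1 against TWEAK, 4 were higher and 0 lower at 6 h by edgeR (1 lower at an unadjusted p below 0.05, 0 by DESeq2), with a median of 0.11, and 5 were higher and 1 lower at 24 h (median 0.0061), against 5.34% and 5.70% of all genes at 6 h and 10.2% and 8.29% at 24 h. Epha2, a receptor tyrosine kinase, went from 556 ± 14 to 480 ± 11 CPM at 6 h and from 528 ± 18 to 433 ± 7.9 CPM at 24 h with TWEAK, and was higher with NIK SMI1 at 6 h (551 ± 2.9 CPM, adjusted p = 0.000116) and 24 h (486 ± 14 CPM, adjusted p = 0.000559). Spred1, an inhibitor of Ras signaling, fell at 24 h (-0.32 ± 0.04, adjusted p = 4.24e-07) and was higher with NIK SMI1 (0.18 ± 0.04, adjusted p = 0.00209). Ccnd1, cyclin D1, fell slightly at both times (-0.08 ± 0.02, adjusted p = 0.0119, and -0.18 ± 0.02, adjusted p = 7.97e-07). Myc, a transcription factor of growth, went the other way, up with TWEAK (0.41 ± 0.03, adjusted p = 1.52e-10, and 0.66 ± 0.03, adjusted p = 8.41e-15) and down with NIK SMI1 at 24 h (-0.34 ± 0.03, adjusted p = 1.32e-08).

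Of 16 other dual-specificity phosphatases, 11 had enough reads to be tested. With TWEAK, 1 was higher and 2 lower at 6 h, and 3 higher and 0 lower by edgeR at 24 h (1 lower at an unadjusted p below 0.05, 0 by DESeq2). The shares over all genes were 11.7% and 12.0% at 6 h and 18.3% and 20.7% at 24 h. With NIK SMI1, 1 was lower at 6 h and 2 at 24 h, against 5.70% and 8.29% of all genes, and edgeR called 0 higher at either time (0 at an unadjusted p below 0.05 and 0 by DESeq2 as well). Dusp22, an atypical phosphatase linked to JNK signaling, had the greatest change among them, larger in size than that of any of the 10 members apart from the sparse Dusp2. It rose from 9.06 ± 0.80 to 18.2 ± 0.16 CPM at 6 h (log2FC 1.02 ± 0.08, adjusted p = 1.19e-10) and from 8.74 ± 0.69 to 20.6 ± 1.2 CPM at 24 h (1.22 ± 0.09, adjusted p = 6.12e-12). With NIK SMI1 it stood at 12.0 ± 1.2 CPM at 6 h (-0.62 ± 0.08, adjusted p = 6.29e-06) and 10.7 ± 1.0 CPM at 24 h (-0.96 ± 0.08, adjusted p = 8.7e-10). Dusp9 (MKP-4), the third cytoplasmic ERK phosphatase, was not called at 6 h (0.03 ± 0.05, adjusted p = 0.675), rose at 24 h (0.45 ± 0.05, adjusted p = 9.36e-09) and was lower with NIK SMI1 at 24 h (-0.16 ± 0.05, adjusted p = 0.0144). Dusp3 (-0.15 ± 0.03, adjusted p = 0.00145) and Dusp18 (-0.14 ± 0.04, adjusted p = 0.0105) fell with TWEAK at 6 h and were not called at 24 h.

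**Figure D4:**
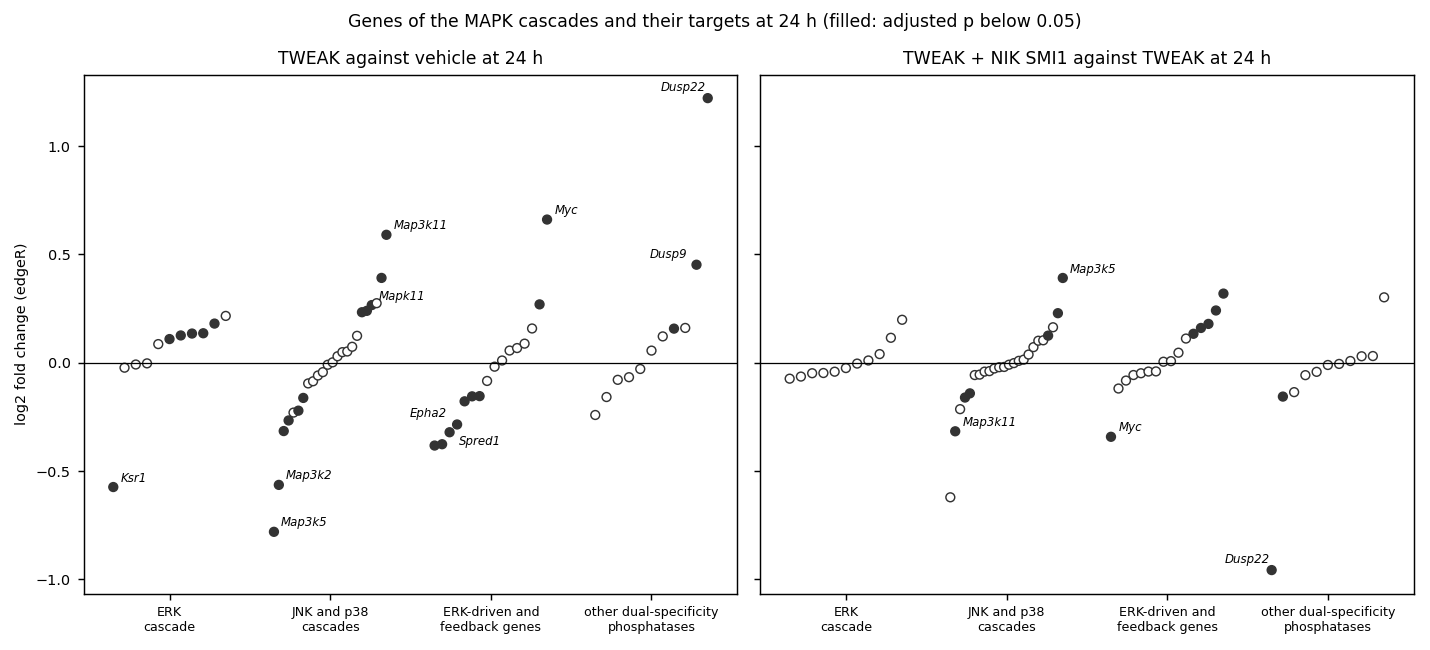
Log2 fold change at 24 h (edgeR) of every tested gene of the 4 lists, for TWEAK against vehicle and for TWEAK + NIK SMI1 against TWEAK, with filled points at an adjusted p below 0.05 and genes ordered by value within a list. Dusp22 lies highest with TWEAK (1.22) and lowest with NIK SMI1 (-0.96), and Map3k5 lies lowest with TWEAK (-0.78).

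Patterns over all 18 samples were compared as Pearson's r of log2(CPM + 0.5), for the 3 members whose group means spanned the widest range. These correlations describe 6 groups of 3 samples, which share treatments, time points and libraries, and they carry no test. Dusp5 (span 1.07 on the log2 scale) was most like Fgd3 (r = 0.974), Rusc2 (0.972) and Ier3 (0.970), an immediate early gene of the ERK list. Dusp1 (span 0.897) was most like Stambpl1 (0.976), Dusp6 (0.974) and Inpp5a (0.973). Dusp6 (span 0.759) was most like Thbd (0.986), which encodes thrombomodulin, the Wnt ligand gene Wnt7a (0.983) and Zdhhc13 (0.980). Dusp1 and Dusp6, a nuclear and a cytoplasmic phosphatase, were thus close in pattern, and so were Dusp4 and Dusp7 (0.951), which rose with TWEAK at both times. Dusp8 and Dusp16, called higher with TWEAK at 24 h only, were less like Dusp4 (0.474 and 0.643) and Dusp7 (0.599 and 0.715). Dusp5, which fell, was less like Dusp1 (0.771) and Dusp6 (0.685). Dusp10, which also fell at both times, had values of 0.818 with Dusp1 and 0.837 with Dusp6.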

How the data were processed

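RNASeq of 18 samples of murine RPTEC (6 groups of 3) was analysed. Per the labels, libraries were made with the TruSeq RNA kit v2, which does not keep strand. The labels and the study's methods differ on the sequencer, the read length and the amount of RNA. The authors ran GSNAP through HTSeqGenie against NCBI build 37 and deposited the raw count of uniquely aligned reads in the exons of each gene, by Entrez Gene identifier, with no normalization. The deposited RPKM, scaled by the authors to exonic length and total reads, was used only to compare levels between genes. The totals behind it were 1.03 to 1.05 times the sums of the counts.

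Symbols were matched by identifier to the RefSeq table of GRCm38.p6 (31049 of 36528 genes). Genes with more than 10 reads in at least 4 samples were tested (15521). A single edgeR 4.0.16 model (R 4.3.3; TMM, estimateDisp, glmQLFit, glmQLFTest) held the 6 groups, and calls were made at a Benjamini-Hochberg adjusted p below 0.05 over all genes tested. Differences between time points were interaction contrasts. CPM is by total counts. The labels give no replicate numbers, and those used here only name samples. Scripts were tested on simulated data. Alternatives were DESeq2 1.42.0, its size factors in edgeR, no TMM factors, no filter (at least 1 read), filterByExpr, each time point alone, omission of the TWEAK 24 h samples with islet reads, and omission of each sample in turn.

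The members and lists were chosen with earlier results of these data known. All members are named, and from each list the genes called for TWEAK or NIK SMI1 with the lowest adjusted p, at most 4, of which 1 is not reported here. Exon overlaps were read from GENCODE M21, whose exonic lengths differ from those of the counted gene models. Start positions and orientation of the promoters are those of RefSeq. Intervals cover the spread between samples.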

Additional observations from a re-analysis of the deposited data

Results flagged for a closer look

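Changes that differed between the time points by the interaction contrast of edgeR were those of Dusp4, Dusp6 and Dusp7 for TWEAK and of Dusp4 for NIK SMI1. The TWEAK effect at 24 h minus that at 6 h was 0.2809 for Dusp4 (adjusted p = 0.000432), -0.174 for Dusp6 (adjusted p = 0.00331) and 0.2119 for Dusp7 (adjusted p = 0.0063) on the log2 scale. In each case the effect had the same direction at both times and was the larger at 24 h, with all 3 TWEAK samples on the same side of all 3 vehicle samples at each time. The NIK SMI1 effect on Dusp4 differed by -0.1822 (adjusted p = 0.0372), with inhibitor samples below TWEAK samples at both times. Without TWEAK 24 h replicate 2, so that all samples compared held islet reads, the TWEAK differences were 0.30 ± 0.05 for Dusp4 (adjusted p = 0.000491), -0.17 ± 0.04 for Dusp6 (adjusted p = 0.0132) and 0.22 ± 0.05 for Dusp7 (adjusted p = 0.0134). Without TWEAK 24 h replicates 1 and 3, the 24 h samples compared for NIK SMI1 nearly lacked islet reads, and 1 TWEAK sample was left. In that setting the difference for Dusp4 was -0.14 ± 0.06. Over all alternatives this difference for Dusp4 ran from -0.14 to -0.21, and its call was lost in 11 of 24 of them.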

How the results depend on the processing

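Counts of members called stayed within 1.5 times the values reported in 210 of 222 comparisons with an alternative, and the calls for Dusp1, Dusp4, Dusp5, Dusp6, Dusp7 and Dusp10 with TWEAK, and for Dusp1, Dusp5 and Dusp6 with NIK SMI1, held under all 25. For TWEAK + NIK SMI1 against vehicle at 6 h, leaving out 1 sample gave 3 to 6 members, with 3 only without TWEAK + NIK SMI1 6 h replicate 2. For the difference of the NIK SMI1 effect between the times, leaving out 1 sample gave 0 to 1 members (0 for 9 of the 18 samples), and the count was 0 with no filter on low counts and 0 without the TWEAK 24 h samples with islet reads. The directions that reversed were those of uncalled changes with TWEAK at 24 h: Dusp2 (-0.41 to 0.11 with 1 sample left out) and Dusp14 (-0.068 to 0.0105). The cause of these changes was not tested. No paired analysis was possible because the labels give no replicate numbers. Dusp2, at 2 to 26 reads, is limited by depth. For the other members, differences between groups of 0.13 to 0.16 on the log2 scale fell on either side of the threshold. Leaving out TWEAK 24 h replicates 1 and 3 sets a TWEAK sample without islet reads against vehicle samples with them, so its values for TWEAK at 24 h do not bear on those reads. Among the TWEAK results there, Dusp8 at 24 h and the time difference of Dusp7 were not called. For NIK SMI1 in that setting, the calls of Dusp16 at 24 h and of the time difference of Dusp4 were lost. With 1 TWEAK sample left at 24 h, islet reads and the smaller group cannot be told apart for any call lost in that setting.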
